A study of Homo sapiens with 3 samples.

Results

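Complex I of the respiratory chain was followed in HCT116 cells through the UMIs (unique molecular identifiers, which count each captured RNA molecule a single time) of 50 genes among the 33538 of the deposited matrices. The members were 37 nuclear genes whose symbols start with NDUFA, NDUFB, NDUFC, NDUFS or NDUFV and end in a number, and the 13 genes whose symbols start with MT-, which are encoded by mitochondrial DNA. HCT116 is a colorectal cancer line, and its genotype label in both libraries was p53plus. Mix1 was a library of irradiated cells only (8 Gy), in which giant radiation-tolerant persister (RTP) cells had been isolated on day 5 or 8 and grown to day 10 or 11, and its 4 preparations carry no marks that tell them apart. Mix2 pooled 10000 irradiated cells from the same procedure (IR, hashtag tag8) with 1000 cells that were never irradiated (NC, 0 Gy, tag6) and 1000 cells that had repopulated the culture after 8 Gy (R, tag7). A hashtag is a barcoded antibody that marks the cells of a preparation before pooling.

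A Mix2 cell was placed in a population when its own tag made up at least 80% of its tag counts and passed a fixed minimum. IR cells were divided at a fixed tag8 count into strong IR (median tag8 count 7438.5) and weak IR, which began at 500 tag8 counts (median 1323). Median counts of the own tag were 1626 in NC and 1345 in R. Cells with at least 200 genes and under 10% of their UMIs from MT- genes, the limits stated in the methods of the study, numbered 810 in NC, 633 in R, 6322 in weak IR, 2216 in strong IR and 15630 in Mix1, and every value was computed again under a limit of 20%. Each population was a single sample, so no difference below was tested, and all intervals, given in brackets at 95%, cover counting error only. A level is given as CPM, counts per 1e+06 summed UMIs of the population. A member counted as measured at 10 CPM in either population and as higher or lower when its ratio of CPM passed 1.5-fold with an interval that left out equality. The comparisons with NC all share the same 810 NC cells.

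Complex I takes electrons from NADH, passes them along iron-sulfur clusters in an arm that reaches into the mitochondrial matrix, hands them to ubiquinone and pumps protons through an arm lying in the inner membrane. Its core is built from both genomes: the core subunits of the matrix arm are nuclear, and the proton-pumping core of the membrane arm is made from the mitochondrial genes MT-ND1 to MT-ND6 and MT-ND4L. Accessory subunits, all nuclear, surround both arms. NDUFA4 keeps a complex I name but is now assigned to complex IV. The remaining mitochondrial genes encode cytochrome b of complex III (MT-CYB), the catalytic core of complex IV (MT-CO1, MT-CO2 and MT-CO3) and parts of the ATP synthase (MT-ATP6 and MT-ATP8). Mitochondrial genes are transcribed as long precursors from either strand, and the mRNAs are cut out and given poly(A) tails.

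The 3′ ends of 6 mitochondrial genes are shown because the kit captures RNA at poly(A) and because these genes include the 3 with the lowest ratios and 3 that stayed near or above the NC level in strong IR. Each is the last 30 bases of the gene in the sense direction from chromosome M of GRCh38 (16569 bases), and capitals mark the stop codon or the part of it that the DNA encodes.
MT-ND6 (chrM:14149-14178, minus strand): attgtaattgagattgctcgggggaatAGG
MT-ND2 (chrM:5482-5511, plus strand): ctatctccccttttatactaataatcttaT
MT-ATP8 (chrM:8543-8572, plus strand): tcgcttcattcattgcccccacaatccTAG
MT-CO2 (chrM:8240-8269, plus strand): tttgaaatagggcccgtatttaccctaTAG
MT-ND4 (chrM:12108-12137, plus strand): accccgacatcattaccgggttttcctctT
MT-CYB (chrM:15858-15887, plus strand): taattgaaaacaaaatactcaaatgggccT

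Of the 13 genes, 6 end in an incomplete stop codon (T or TA), which the poly(A) tail completes, and 7 encode all 3 bases. MT-ND6 (chrM:14149-14673) is the only member on the minus strand. Its sense strand held 19.6% A and 35.6% G, against 26.8 to 38.7% A and 6.28 to 16.2% G in the other 12 genes, and its longest run of A was 3 bases, as in MT-ND4L and shorter than in the rest (up to 8 bases). Its mRNA is known to lack a poly(A) tail, so its UMIs need not follow the amount of its mRNA as those of the other genes do. MT-ATP8 (chrM:8366-8572) shares its last 46 bases, 22.2% of its length, with MT-ATP6, and both proteins are made from a shared RNA. MT-ND4L and MT-ND4 share 7 bases (chrM:10760-10766) and also a shared RNA. Counts of these 2 pairs are therefore uncertain as to which gene of the pair they belong to.

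Kept cells held 4731705 gene UMIs in R, 6104377 in NC, 27127545 in strong IR, 46991674 in weak IR and 150680612 in Mix1, with medians per cell of 6933 to 7216 in NC, R and weak IR, 8995.5 in Mix1 and 11861.5 in strong IR. The p53 target CDKN1A was at 180 CPM in NC, 255 in R, 265 in weak IR, 630 in Mix1 and 918 in strong IR, and the proliferation marker MKI67 was at 334, 317, 288, 164 and 126 CPM in the same order, so weak IR lay nearer to NC and R than to strong IR on both. Weak IR was set by tag8 counts alone, and whether all its cells came from the irradiated preparation was not tested. Keratins and EPCAM, the epithelial markers, were present in every population (KRT18 1284 to 2362 CPM), while PTPRC, CD3D, VWF, PECAM1, COL3A1 and DCN had 0 to 13 UMIs in any population. The other markers of immune, fibroblast and red blood cells, CD68, COL1A1, HBB and HBA1, were at 0 to 6.71 CPM. The cell lists held 17019 barcodes in Mix1 and 13888 in Mix2, and 59 were in both lists. The numbers of cells loaded were 10000 and 12000, so by these numbers not every listed barcode can be a loaded cell. In Mix1, 5715 listed barcodes had under 5000 UMIs. Listed barcodes are called cells here, and which of them held no intact cell was not tested. The 2127 Mix2 cells that met no tag rule were left out. In Mix2, 51277 droplets outside the cell list with at least 100 and under 500 gene UMIs served as a reference for RNA outside the listed cells. They held 3.95% mitochondrial UMIs, against 8.65 to 9.91% in droplets of fewer UMIs, so their make-up depends on the size class chosen.

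The mitochondrial share of a cell was spread more widely in weak IR, strong IR and Mix1 than in NC or R. Before the limit, the share of UMIs from MT- genes had a median per cell of 6.15% in NC, 7.51% in R, 6.82% in weak IR, 6.38% in strong IR and 3.64% in Mix1. The range from the 5th to the 95th percentile of cells was 3.99 to 11.01% in NC and 5.10 to 12.2% in R. It was 1.56 to 21.7% in weak IR, 0.705 to 16.5% in strong IR and 0.386 to 14.6% in Mix1, so these 3 reached further on both sides. Cells under 1% made up 0.115% of NC (1 of 869), 3.16% of weak IR, 6.43% of strong IR (175 of 2722) and 10.8% of Mix1 (1840 of 17019). None of 730 R cells was under 1%, with an upper limit of 0.504% for the share. At the other end, the limit of 10% removed 6.79% of NC cells, 8.16% of Mix1, 13.3% of R, 15.03% of weak IR and 18.6% of strong IR. Cells at both ends were shallower than the kept cells as a whole. Median UMIs under 1% and at 20% or more were 1566 and 2073 in weak IR, 3447.5 and 2668 in Mix1, and 7299 and 4638.5 in strong IR. Droplets outside the cell list had median counts of 11 for tag6, 3 for tag7 and 115 for tag8. Whether barcodes without an intact cell add to these ends was not tested.

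**Figure D1:**
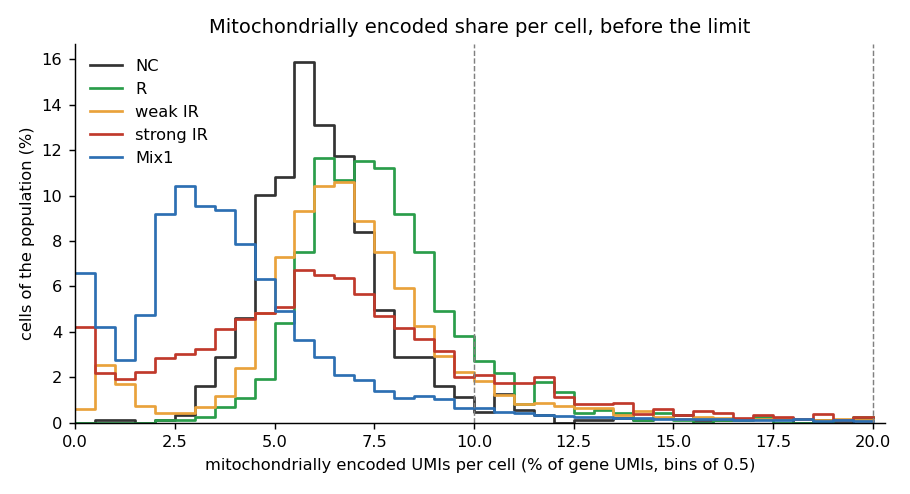
Share of cells (vertical axis, % of the population) by the percentage of their UMIs from the 13 MT- genes (horizontal axis, bins of 0.5), before the limit, for 5 populations; dashed lines mark 10% and 20%, and cells above 20% are not drawn. NC and R form single peaks around medians of 6.15% and 7.51%, whereas strong IR is broad. Mix1 has a separate group of cells near 0, and smaller ones are in strong IR (4.22% of cells at 0 to 0.5) and weak IR (2.54% at 0.5 to 1).

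Because the limit takes different shares of cells from each population, it decided whether the summed mitochondrial share of strong IR lay below or above that of NC. Under 10%, MT- genes held 6.03% of UMIs in NC, 7.13% in R, 6.54% in weak IR, 5.49% in strong IR and 4.06% in Mix1. Under 20% the shares were 6.27, 7.67, 7.10, 6.47 and 4.42% in the same order, and without a limit they were 6.35, 7.81, 7.61, 6.80 and 4.77%. Strong IR was thus under NC with the 10% limit and over it with the other 2, while R stayed highest and Mix1 lowest under all 3.

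MT-ND6, a membrane-arm subunit needed for assembly of complex I, had the lowest strong IR over NC ratio of all 50 members. Its level was 1299 CPM in NC, 1167 in R, 977 in weak IR, 350 in strong IR and 266 in Mix1. Strong IR and Mix1 stood well below the other 3 populations, whose levels lay close together. The ratio was 0.270 (0.262 to 0.278) for strong IR over NC and 0.205 (0.200 to 0.210) for Mix1 over NC, and it ranged from 0.125 to 0.332 for strong IR over 14 other ways of choosing cells or scaling. MT-ND2, another proton-pumping subunit, followed the same order at 4085 CPM in NC, 3531 in R, 3512 in weak IR, 2274 in strong IR and 1569 in Mix1 (0.557, 0.548 to 0.565, for strong IR over NC). MT-ATP8, a small membrane subunit of the ATP synthase, was at 190 CPM in NC, 227 in R, 199 in weak IR, 99.6 in strong IR and 76.0 in Mix1 (0.525, 0.490 to 0.563). These 3 of the 13 mitochondrial genes were called lower in strong IR, and none was called higher, beside 15.4% of all 7722 genes measured called lower and 9.92% called higher. The same 3 were called lower under the 20% limit and without a limit. MT-ND2 moved to 0.672 at 4 to 10% mitochondrial UMIs, just short of the fold limit.

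**Figure D2:**
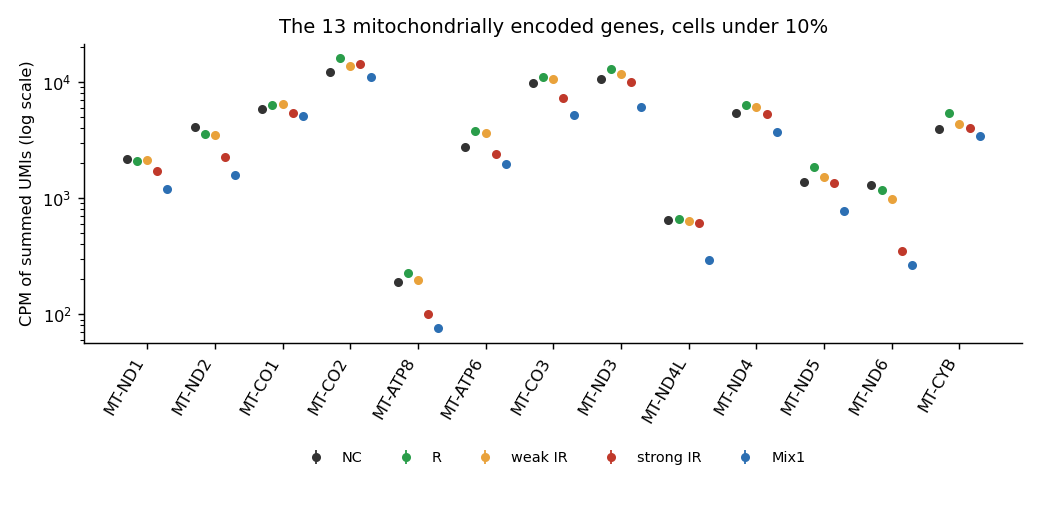
Level of each mitochondrial gene (horizontal axis, in genome order) in CPM of summed UMIs (vertical axis, log scale) in cells under 10%; points are the 5 populations and bars are exact Poisson 95% intervals, mostly smaller than the points. MT-ND6 lies at 1299 CPM in NC and at 350 and 266 CPM in strong IR and Mix1, while MT-CO2 lies between 11017 and 16088 CPM in all 5.

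The other mitochondrial subunits of complex I were closer to NC in strong IR. MT-ND1, next to the ubiquinone site, had a ratio of 0.785 (0.770 to 0.801), and MT-ND3, MT-ND4, MT-ND4L and MT-ND5 had 0.932 to 0.972. All 7 were below NC under the 10% limit, with a median log2 ratio of -0.10, and under the 20% limit 4 of the 7 were above NC, with a median of 0.05. Of the 6 genes for complexes III to V, MT-CO3 had 0.733 (0.726 to 0.740), MT-ATP6 0.872 (0.857 to 0.887), MT-CO1 0.925 (0.914 to 0.936) and MT-CYB 1.01 (0.999 to 1.03). MT-CO2, the copper-binding subunit that accepts electrons from cytochrome c, was the only member of the 13 whose interval lay above 1 under the 10% limit, at 12096 CPM in NC and 14145 in strong IR (1.17, 1.16 to 1.18). Under 20% MT-CYB (1.18), MT-ND5 (1.15), MT-ND4 (1.11), MT-ND3 (1.096), MT-CO1 (1.05) and MT-ND4L (1.03) also had intervals above 1. The median log2 ratio of the 13 was -0.11, beside -0.11 over all genes measured, and it became 0.05 under the 20% limit and 0.11 without one.

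The make-up of the mitochondrial UMIs, each gene as a share of all 13, sets aside their summed level, and it differed between the same populations. MT-ND6 made up 2.15% (2.11 to 2.20) of mitochondrial UMIs in NC, 1.64% in R, 1.49% in weak IR, 0.639% (0.626 to 0.652) in strong IR and 0.655% in Mix1. MT-ND2 made up 6.77% in NC, 4.95% in R, 5.37% in weak IR, 4.14% in strong IR and 3.86% in Mix1. MT-CO2 went the other way, with 20.1% in NC, 22.6% in R, 20.8% in weak IR, 25.8% in strong IR and 27.1% in Mix1. The ratio of shares for strong IR over NC was 0.297 (0.288 to 0.306) for MT-ND6, 0.577 (0.539 to 0.619) for MT-ATP8, 0.612 (0.603 to 0.621) for MT-ND2, 0.806 (0.798 to 0.813) for MT-CO3 and 1.29 (1.28 to 1.30) for MT-CO2. Under the 20% limit the ratio was 0.273 (0.265 to 0.281) for MT-ND6 and 1.258 (1.249 to 1.268) for MT-CO2. Droplets without cells held 0.910% MT-ND6, 4.11% MT-ND2 and 20.6% MT-CO2 among their mitochondrial UMIs.

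The lower share of MT-ND6 was present among cells of like mitochondrial content. In cells with 4 to 6% mitochondrial UMIs it was 2.61% in NC, 2.14% in R, 1.84% in weak IR, 0.645% in strong IR and 0.692% in Mix1. In cells with 8 to 10% it was 1.36, 1.41, 1.16, 0.573 and 0.320% in the same order. The ratio of strong IR to NC was 0.146 (0.129 to 0.164) at 2 to 4%, 0.247 (0.235 to 0.260) at 4 to 6%, 0.385 (0.367 to 0.403) at 6 to 8%, 0.421 (0.385 to 0.462) at 8 to 10% and 0.280 (0.252 to 0.312) at 10 to 20%. Within NC itself the share of MT-ND6 went from 3.58% at 2 to 4% down to 1.36% at 8 to 10%, and was 1.39% at 10 to 20%. The ratio was lowest at 2 to 4%, where the NC share was highest. Its second fall, at 10 to 20%, went with a share of 0.390% in strong IR. Depth moved it little: the ratio was 0.273 in cells under 5000 UMIs, 0.259 from 5000 to 10000 and 0.287 from 10000 to 20000. Among tag8 cells the share was 1.67% at 500 to 1000 tag8 counts, 1.53% at 1000 to 2000, 0.480% at 6000 to 12000 and 0.440% from 12000 on.

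**Figure D3:**
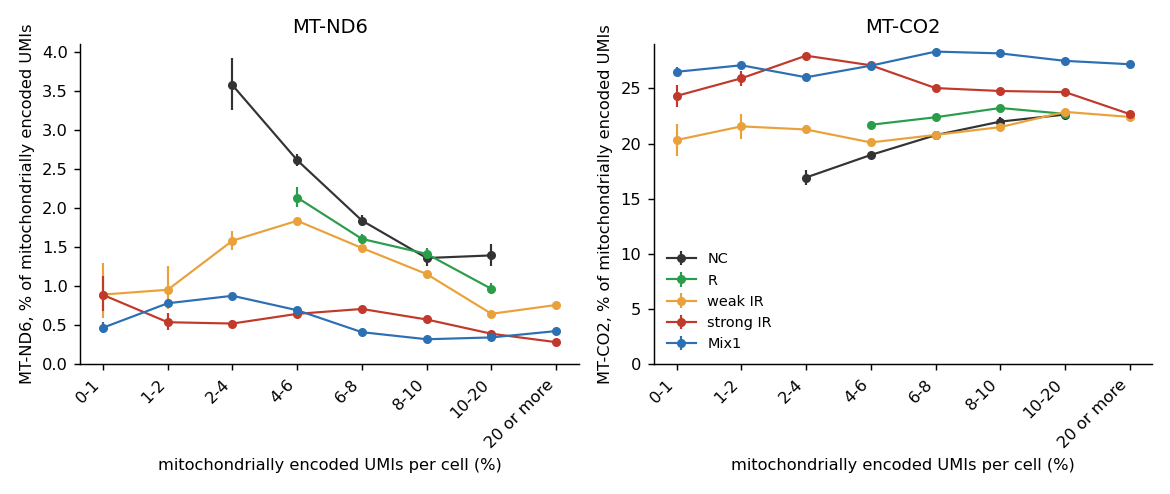
Share of MT-ND6 (left) and MT-CO2 (right) among the mitochondrial UMIs (vertical axes, %) in cells grouped by their mitochondrial percentage (horizontal axes); lines join the bins of a population, bars are exact binomial 95% intervals, and bins under 20 cells are left out. MT-ND6 is 1.36 to 3.58% in the NC bins under 10% and 0.521 to 0.888% in those of strong IR.

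Weak IR and R kept all 13 mitochondrial genes within the fold limit. In weak IR none of the 13 was called, beside 0.709% of 7478 genes called higher and 0.481% called lower. MT-ND6 was lowest there at 0.753 (0.735 to 0.771) and MT-ATP6, the proton channel subunit of the ATP synthase, highest at 1.32 (1.30 to 1.35). In R none was called either, beside 1.42% of 7533 genes called higher and 1.77% called lower. In R all 6 genes for complexes III to V lay above NC, with a median log2 ratio of 0.33, while 4 of the 7 complex I genes did, with a median of 0.04, and the values of both groups overlapped. MT-ATP6 (1.39, 1.36 to 1.42), MT-CYB (1.36, 1.33 to 1.38) and MT-CO2 (1.33, 1.32 to 1.34) were highest in R, followed by MT-ND5 (1.33, 1.29 to 1.37). MT-ND2 (0.864, 0.848 to 0.881) and MT-ND6 (0.899, 0.868 to 0.930) were lowest. Compared directly, strong IR had 4 mitochondrial genes lower than weak IR and none higher, beside 10.6% of 7625 genes called lower and 7.23% called higher. They were MT-ND6 (0.358, 0.351 to 0.366), MT-ATP8 (0.502, 0.480 to 0.524), MT-ND2 (0.647, 0.641 to 0.653) and MT-ATP6 (0.658, 0.652 to 0.664), and only MT-ND6 and MT-ATP8 were called under the 20% limit.

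Mix1 had the lowest level of all 13 mitochondrial genes among the 5 populations, and 8 of them passed the fold limit over NC, beside 10.0% of 7662 genes called lower and 6.97% called higher. Besides MT-ND6, the lowest were MT-ND2 (0.384, 0.379 to 0.389), MT-ATP8 (0.401, 0.377 to 0.426) and MT-ND4L (0.455, 0.440 to 0.470), and MT-CO3, MT-ND1, MT-ND5 and MT-ND3 had 0.527 to 0.573. MT-ND4 (0.674), MT-ATP6 (0.713), MT-CYB (0.863), MT-CO1 (0.882) and MT-CO2 (0.911) did not pass. Between 4 and 10% mitochondrial UMIs, 4 mitochondrial genes were still called lower in Mix1 (MT-ND6, MT-ND2, MT-ATP8 and MT-ND4L). Mix1 was a library of its own, processed with Cell Ranger 3.1.0 and not 3.0.1, and its differences from NC cannot be told apart from differences between the libraries. Nuclear copies of the mitochondrial 16S rRNA gene, named after their values were seen, moved with the library: MTRNR2L1, MTRNR2L8 and MTRNR2L12 were at 23.6 to 35.03 CPM in Mix1 and at 0 to 1.49 CPM in every Mix2 population. What part such differences have in the Mix1 ratios was not tested.

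All 37 nuclear complex I genes were measured, and none passed the fold limit in either direction in strong IR, weak IR or R over NC. Of all genes measured, 9.92% were called higher and 15.4% lower in strong IR. The shares were only 0.709% and 0.481% in weak IR and 1.42% and 1.77% in R. Having no subunit called was thus near the share over all genes in weak IR and R. The summed level of the 37 was 10357 CPM in NC, 10612 in R, 10582 in weak IR, 11290 in strong IR and 10655 in Mix1, a ratio of 1.09 (1.08 to 1.10) for strong IR over NC. The median log2 ratio in strong IR was 0.07, beside -0.11 over all genes measured, and 22 of the 37 were above NC.

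The small differences in strong IR ran by place in the complex. Of the 7 core subunits of the matrix arm, 6 were below NC, with a median log2 ratio of -0.24. NDUFS7, which carries the iron-sulfur cluster next to ubiquinone, was lowest of them at 190 CPM in NC and 147 in strong IR (0.775, 0.725 to 0.828). NDUFS1, the largest subunit, had 0.781 (0.690 to 0.886), and NDUFS3 had 0.847 (0.788 to 0.911). The subunits of the NADH end, NDUFV1 (0.920, 0.843 to 1.005) and NDUFV2 (0.981, 0.932 to 1.03), had intervals that reached 1. NDUFS8, an iron-sulfur subunit, was the exception at 310 CPM in NC and 373 in strong IR (1.204, 1.15 to 1.26).

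Accessory subunits of the membrane arm lay mostly above NC, 17 of 20 with a median log2 ratio of 0.16, and the 9 of the matrix arm had a median of -0.04. NDUFA11, of the membrane arm, was highest at 354 CPM in NC, 365 in R, 371 in weak IR, 372 in Mix1 and 530 in strong IR. Its ratio of 1.499 (1.43 to 1.57) fell just short of the fold limit and was 1.36 to 1.77 over 15 other settings, 7 of which carried it past. NDUFB2 (1.38, 1.32 to 1.44) and NDUFB11 (1.36, 1.29 to 1.44) of the membrane arm and NDUFV3 (1.29, 1.18 to 1.41) at the NADH end came next. NDUFB6 (0.736, 0.685 to 0.792), NDUFA10 (0.792, 0.736 to 0.852) and NDUFC1 (0.824, 0.791 to 0.858), all 3 of the membrane arm, and NDUFA5 of the matrix arm (0.802, 0.742 to 0.866) were lowest. NDUFA4, of complex IV, was at 436 CPM in NC and 541 in strong IR (1.24, 1.19 to 1.29).

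**Figure D4:**
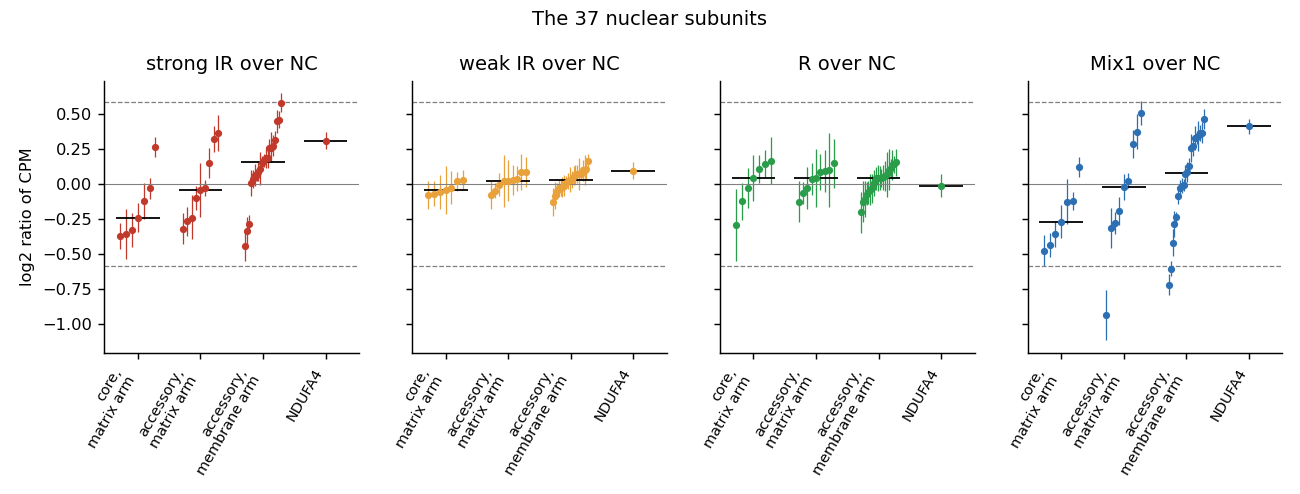
log2 ratio of CPM over NC (vertical axis) for each of the 37 nuclear genes, grouped by place in the complex (horizontal axis), in 4 panels for strong IR, weak IR, R and Mix1; points are genes, bars 95% counting intervals, black lines group medians and dashed lines the 1.5-fold limit. In strong IR the core of the matrix arm has a median of -0.24 and the accessory membrane arm 0.16, and only Mix1 has genes past the limit.

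The order by place in the complex went together with mRNA length. Among the 19 nuclear members with the shorter canonical mRNAs in GENCODE 44 (317 to 696 bases), 15 were above NC in strong IR, with a median log2 ratio of 0.15, and among the 18 longer ones (737 to 11660 bases) 7 were, with a median of -0.11. The same split held over all genes measured: 72.5% of the 258 genes with mRNAs up to 696 bases were above NC, and 39.5% of the 7459 longer ones, with median log2 ratios of 0.21 and -0.12. The level in droplets without cells also moved with these ratios: it was above that of every population for 17 of the 22 subunits above NC, such as NDUFA11 (540 CPM) and NDUFB2 (718 CPM), and for 4 of the 15 below NC, such as NDUFC1 (642 CPM). The part of either in the ratios was not tested.

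Promoters of NDUFS7, the lowest core subunit in strong IR, and NDUFA11, the highest of all 37, are shown, from RefSeq on GRCh38.p14, each from 250 bases before to 50 bases after the start of the gene and in its direction. Capitals mark the letters TGCGCA, part of the site of NRF1, and AAGATGG, part of the site of YY1, regulators of nuclear genes for mitochondria.
NDUFS7 (chr19:1383657-1383956, plus strand): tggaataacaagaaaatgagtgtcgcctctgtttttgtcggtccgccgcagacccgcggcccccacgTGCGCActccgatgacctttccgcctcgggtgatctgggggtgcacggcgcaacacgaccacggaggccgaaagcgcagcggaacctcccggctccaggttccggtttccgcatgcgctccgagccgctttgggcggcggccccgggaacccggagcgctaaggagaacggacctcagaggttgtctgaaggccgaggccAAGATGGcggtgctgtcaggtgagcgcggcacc
NDUFA11 (chr19:5903741-5904040, minus strand): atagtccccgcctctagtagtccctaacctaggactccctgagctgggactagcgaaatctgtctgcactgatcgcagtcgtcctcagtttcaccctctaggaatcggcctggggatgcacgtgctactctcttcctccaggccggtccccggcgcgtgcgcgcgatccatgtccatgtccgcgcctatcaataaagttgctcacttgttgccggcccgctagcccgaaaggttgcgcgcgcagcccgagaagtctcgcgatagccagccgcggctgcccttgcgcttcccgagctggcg

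Promoters were found for 31 of the 37 nuclear members, spread with the others over 18 chromosomes. On either strand TGCGCA occurred in 10 of the 31 (32.3%) and in 8.24% of all 35116 promoters of the table, AAGATGG in 9 (29.0%) and in 5.84%, and the ETS letters CCGGAAG in 5 (16.1%) and in 10.3%. These are matches of letters and not measured sites, and NDUFA11 held none of the 3.

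In weak IR and R the nuclear subunits lay near NC, with median log2 ratios of 0.02 and 0.05 beside -0.03 and -0.04 over all genes measured. Ratios ran from 0.915 (NDUFB6, 0.856 to 0.980) to 1.12 (NDUFB9, 1.09 to 1.16) in weak IR, 2 subunits of the membrane arm. In R, NDUFS1 (0.819, 0.685 to 0.978), NDUFB6 (0.871, 0.787 to 0.962) and NDUFA10 (0.917, 0.829 to 1.01) were at the low end, and NDUFV1 (1.12, 1.002 to 1.26), NDUFB4 (1.11, 1.04 to 1.19) and NDUFV3 (1.11, 0.980 to 1.255) at the high end. Neither population showed a difference between the arms like that of strong IR: medians by arm were -0.04 to 0.03 in weak IR and 0.05 for each arm in R.

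Mix1 had 3 nuclear members of 37 called lower than NC and none higher, a share near or under the 10.0% called lower and 6.97% called higher of all genes measured. NDUFA7, an accessory subunit of the matrix arm, was at 44.1 CPM in NC, 47.3 in R, 44.7 in weak IR, 42.8 in strong IR and 23.03 in Mix1 (0.523, 0.461 to 0.594). NDUFA13, also known as GRIM-19, was at 273, 268, 270, 311 and 166 CPM in the same order (0.609, 0.579 to 0.640), and NDUFB1, a small membrane-arm subunit, at 468, 482, 452, 561 and 308 CPM (0.659, 0.634 to 0.684). Mix1 stood apart from all 4 populations of Mix2 in each of the 3 genes. NDUFA7 (chr19:8308768-8321375, minus strand) and NDUFA13 (chr19:19515736-19529054, plus strand) overlap other annotated genes on their own strand, NDUFA13 with YJEFN3, so their counts may be uncertain. Such overlaps are common, with 18 of the 37 nuclear members. Among them are NDUFA11, NDUFB2, NDUFB6, NDUFA10, NDUFC1, NDUFS1, NDUFS3, NDUFS8, NDUFV1 and NDUFV2, given above for strong IR. Overlaps were taken over whole gene spans and every annotated type of gene, such as the microRNA gene MIR4786 for NDUFA10. Whether they affected any count was not tested. NDUFB11, NDUFV3, NDUFA5 and NDUFS7 have no such overlap. NDUFB1 (chr14:92116122-92121917, minus strand) overlaps none. COX16 and SARNP, picked after their values were seen, parted the libraries more widely, with 42.9 and 5.83 CPM in Mix1 and 198 to 238 and 29.9 to 48.2 CPM in Mix2. NDUFA2 (1.42, 1.34 to 1.51) and NDUFB7 (1.38, 1.31 to 1.45) were highest in Mix1 without passing the limit.

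The nuclear subunits varied with the mitochondrial content of the cell within strong IR and Mix1, and within weak IR at the ends of the range. With MT- UMIs left out of the total, the summed level of the 37 in strong IR was 14094 CPM (13912 to 14279) in cells under 1% mitochondrial UMIs, 12267 at 2 to 4%, 11873 at 4 to 6%, 11225 at 8 to 10% and 9205 (8888 to 9531) at 20% or more. Between the same ends it went from 12416 to 8307 CPM in weak IR and from 11753 to 8459 CPM in Mix1. In weak IR it was flat in between, at 11277 to 11325 CPM over the bins from 2 to 10%, where most of its cells lay. In R it ran from 11399 to 11510 CPM over the bins between 4 and 20%. In NC the same level ran from 10862 to 11558 CPM over the bins between 2 and 20%, and NC had too few cells for a bin under 2% or from 20% up. From 8% up strong IR lay no higher than NC. The subunits did not move together. Between the cells under 1% and those at 8 to 10%, 10 of the 37 were higher by 1.5-fold or more in the former, among them NDUFA11 (837 and 469 CPM) and NDUFB2 (967 and 574 CPM), and all 10 were accessory subunits of either arm or NDUFA4. Another 6 were lower by 1.5-fold or more, among them the core subunits NDUFS1 (21.7 and 54.8 CPM) and NDUFV1 (48.4 and 114 CPM) and the accessory NDUFA10 (70.7 and 154 CPM). Of all 7900 nuclear genes at 10 CPM or more in either group of cells, 4.34% were higher and 50.9% lower by the same fold. The median ratio was 1.08 over the 37 and 0.660 over all these genes. MALAT1, an RNA kept in the nucleus, moved the opposite way, from 1150 CPM in strong IR cells under 1% to 15570 at 8 to 10% and 54432 at 20% or more, against 14950 to 30756 CPM in NC. Between cells under 1% and those at 20% or more it went from 8260 to 92343 CPM in weak IR and from 8386 to 92073 CPM in Mix1. Strong IR cells under 1% thus had little MALAT1 as well as few mitochondrial UMIs, with a median of 7299 UMIs per cell. Within strong IR they lay at the highest tag counts: 22.8% of tag8 cells from 12000 tag8 counts on were under 1%, against 0.860% at 6000 to 12000. Tag8 cells of low counts, outside strong IR, held such cells too, 11.7% under 250 counts, 14.8% at 250 to 500 and 7.39% at 500 to 1000. Droplets without cells had 13611 CPM of the 37 on the same scale, above all populations as a whole, and the part of such RNA in the values of these cells was not tested.

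**Figure D5:**
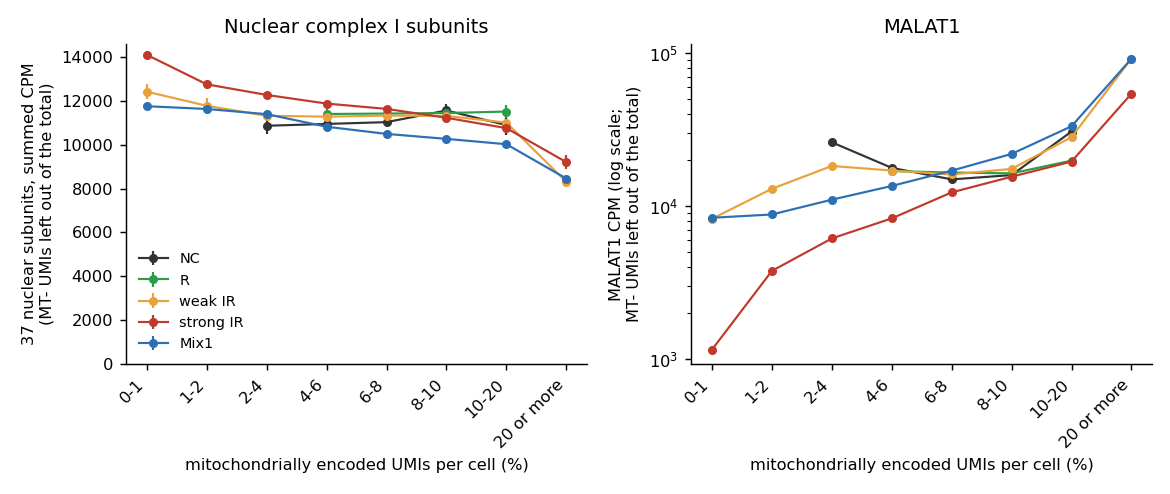
Summed level of the 37 nuclear subunits (left, CPM with MT- UMIs left out of the total) and of MALAT1 (right, log scale) by the mitochondrial percentage of the cell (horizontal axes) in 5 populations; bars on the left are Poisson 95% intervals. In strong IR the subunits go from 14094 CPM under 1% to 9205 CPM at 20% or more while MALAT1 goes from 1150 to 54432 CPM.

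The balance of nuclear to mitochondrial complex I UMIs was higher in strong IR and Mix1 than in NC, and for strong IR the difference shrank as the limit was widened. The 37 nuclear genes had 0.403 UMIs (0.400 to 0.407) for each UMI of the 7 mitochondrial complex I genes in NC, 0.372 in R, 0.398 in weak IR, 0.522 (0.519 to 0.524) in strong IR and 0.768 in Mix1. Under the 20% limit these were 0.389, 0.347, 0.366, 0.429 and 0.700. Without a limit they were 0.383, 0.340, 0.337, 0.404 and 0.646, so strong IR then lay close to NC. Droplets without cells had 0.782. The level of the 7 mitochondrial genes together was 25674 CPM in NC and 21644 in strong IR under 10%, and 26534 and 25689 CPM under 20%, so the strong IR balance rested less on the mitochondrial side under the wider limit. The 37 include NDUFA4.

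Other genes of oxidative phosphorylation and of mitochondrial gene expression stood on both sides of NC in strong IR. Nuclear genes of complex III (9 measured), complex IV (11) and complex V (18) had median log2 ratios of 0.25, 0.19 and 0.17. Of these 38 genes 1 was called higher and 0 lower, UQCR11 of complex III (1.55, 1.495 to 1.61), and the lowest were CYC1, cytochrome c1 (0.782, 0.748 to 0.818), and ATP5F1A, a subunit of the catalytic head of the ATP synthase (0.734, 0.698 to 0.772). COX7A2 (1.24) and COX8A (0.920) were the ends of complex IV, and ATP5IF1, an inhibitor of the ATP synthase, was highest in complex V (1.30). Complex II, which has no mitochondrially encoded subunit, had a median of -0.22 over 4 genes, with SDHD called lower (0.661, 0.587 to 0.746) and SDHC highest (0.959). Of 15 assembly factors of complex I, NDUFAF8 was called higher (1.52, 1.45 to 1.59), 2 were called lower, ACAD9 the lowest (0.538, 0.459 to 0.633), and the median was -0.05.

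Genes that transcribe mitochondrial DNA or handle its RNA lay below NC, 17 of 18 with a median of -0.31, and MTERF3, a negative regulator of that transcription, was called lower (0.634, 0.533 to 0.756). TWNK, the helicase of mitochondrial DNA, was the exception at 1.14 (0.986 to 1.32). The 5 regulators of mitochondrial biogenesis that were measured had a median of -0.40, with GABPB1 called lower (0.627, 0.487 to 0.814) and YY1 highest (0.866). The 77 mitochondrial ribosomal proteins measured had a median of -0.17, with 3 called lower, from MRPL38 (0.516, 0.389 to 0.690) to MRPL41 (1.39, 1.32 to 1.46), and 0 called higher. In weak IR and R none of the genes of these lists was called in either direction, with medians of -0.14 to 0.04. Of all genes, only 0.709% were called higher and 0.481% lower in weak IR, and 1.42% and 1.77% in R. In Mix1, 2 genes of these lists were called higher and 11 lower, 6 of the latter mitochondrial ribosomal proteins. Of the 157 genes measured in all these lists, 2 were called higher and 8 lower in strong IR, beside 9.92% and 15.4% of all genes, and the Mix1 counts stood beside 6.97% and 10.0%, so both lay under the share over all genes.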

How the data were processed

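HCT116 cells were profiled with a droplet 3′ kit (Single Cell 3', v3.1) as 2 libraries. The authors mapped reads to GRCh38 and deposited UMI counts per gene and barcode, made, per the file headers, with Cell Ranger 3.1.0 (Mix1) and 3.0.1 (Mix2), with hashtag counts as the last 3 features of Mix2. RNA without a poly(A) tail is captured poorly by such a kit, and reads of overlapping genes can go to either gene or to none. The deposited counts were not altered. The filters stated by the study left many more cells of both libraries here than it states. The tag rule used here gave more NC and IR cells but fewer R cells than the study reports, so the 2 tag assignments differ. The reason was not tested, and doublets were not removed.

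For each population the UMIs of all its cells were added up per gene and expressed as CPM (Python 3.11.15, numpy 2.4.6, pandas 2.3.3, scipy 1.17.1, matplotlib 3.10.9). Intervals at 95% were exact Poisson for a level, exact binomial (Clopper-Pearson) for a share and conditional binomial for a ratio. With 1 sample per population no test was possible, so genes were called by size: at least 10 CPM in either population, a ratio of 1.5-fold and an interval without equality. The calling step was tested on simulated data. Alternatives changed the mitochondrial limit, the tag purity, the scaling (R 4.3.3, edgeR 4.0.16 and DESeq2 1.42.0 for factors only), the weight and depth of cells, the subtraction of droplets without cells, the CPM minimum and the fold.

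The members, gene lists and tag limits were chosen with earlier results of these data known. Lists were the arms of complex I, its assembly factors, nuclear genes of complexes II to V, mitochondrial DNA transcription and RNA handling, biogenesis regulators, mitochondrial ribosomal proteins and cell type markers. Genes were named by rule: the 13 mitochondrial genes, the 7 nuclear core subunits (1 of which is not reported here by name), NDUFA4, the 4 highest and 4 lowest other subunits in strong IR, 2 and 2 in R and in Mix1, every member past the fold limit, and the ends of each list. Other genes and subunits given with values are said to be picked after their values were seen or are ends of a range. Positions and mRNA lengths came from GENCODE 44, and promoters from RefSeq (GRCh38.p14).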

Additional observations from a re-analysis of the deposited data

How the results depend on the processing

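No paired analysis was possible because each population was a single sample with no replicate numbers, and no replicate could be left out for the same reason. A median recomputed under an alternative was classed as unchanged when it lay inside an interval around the main median, whatever its sign. This held for 60 of 69 medians of the mitochondrial genes and 69 of 74 of the nuclear subunits. The nuclear intervals spanned equality, so an unchanged median could differ in direction. In weak IR over NC the nuclear median went from 0.023 to -0.0011 without a limit and was classed as unchanged. Of the counts, 60 of 74 called higher and 62 of 74 called lower were classed as unchanged. Of the values of the mitochondrial share, 42 of 44 moved. Results classed as changed are given here with their values. The cause of these shifts was not tested beyond what each change of cells or scale does by construction. The median log2 ratio of the 13 mitochondrial genes in strong IR over NC turned from -0.11 to 0.048 under the 20% limit, 0.11 without a limit and 0.091 in cells of 4 to 10%, a range chosen after seeing the data, and was -0.030 with TMM factors. In weak IR over NC it was 0.20 under 20%, 0.29 without a limit, -0.10 under 5% and 0.20 with TMM factors, and in strong over weak IR -0.031 at 4 to 10%. The nuclear median under 5% was 0.20 in strong IR, 0.072 in weak IR and 0.14 in R. It was 0.092 in weak IR with TMM factors and 0.078 in R with MT- and ribosomal protein genes left out of the total. Under 5%, a limit that left 31 R and 172 NC cells, MT-ND6 in R over NC turned to 1.06.

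Strong IR had 1 member called higher over NC (NDUFA11) with an own tag of at least 90%, TMM factors, DESeq2 factors, MT- and ribosomal protein genes left out, equal weight per cell or droplets without cells subtracted. Under 5% it had 3 higher (NDUFA11, NDUFB11, NDUFB2) and 9 lower, while weak IR had 1 lower, R 1 higher and strong over weak IR 2 higher. Strong over weak IR had 2 lower under 20%, without a limit, with DESeq2 factors, with MT- and ribosomal protein genes left out, and at 4 to 10%. At 4 to 10% Mix1 had 7 lower. A limit of a 25% difference in place of 1.5-fold gave 5 higher and 10 lower in strong IR, 1 and 1 in weak IR, 4 higher in R, 9 and 17 in Mix1, and 3 and 7 in strong over weak IR. Under 20%, 6.52% of all genes were called higher and 8.81% lower in strong over weak IR. The share over all genes is not given for the other settings. These counts therefore show how calls of members move, and not whether members differ from genes in general. MT-CO2 in Mix1 over NC turned to 1.01 without a limit, 1.05 under 5% and 1.28 at 4 to 10%.

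The share of mitochondrial UMIs in NC, R, weak IR, strong IR and Mix1 was 6.27, 7.67, 7.10, 6.47 and 4.42% under 20%, and 6.35, 7.81, 7.61, 6.80 and 4.77% without a limit. It was 4.35, 4.35, 3.92, 2.97 and 3.07% under 5%, and 6.18, 7.17, 6.73, 6.65 and 5.76% at 4 to 10%. Equal weight per cell gave 6.10, 7.20, 6.28, 5.34 and 3.64%, cells of at least 5000 UMIs 6.01, 7.11, 6.60, 5.53 and 4.21%, and leaving out the 5% of cells with most UMIs 6.06, 7.16, 6.55, 5.51 and 4.12%. An own tag of at least 90% gave 5.997% in NC, 7.18% in R and 5.50% in strong IR, and subtracting droplets without cells gave 6.14, 7.30, 6.68 and 5.57% in the Mix2 populations. Variation between libraries could not be measured, since Mix1 was a library of its own and NC, R and IR shared another.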
